A study of Mus musculus with 31 samples.

Results

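The 46 genes described here are the protein-coding genes of the count table whose symbol begins with Nduf, of 54532 genes and 21918 protein-coding genes in all. By their names and established roles they were separated into 36 subunits of respiratory complex I encoded in the nucleus, 8 assembly factors (the Ndufaf genes) and 2 genes that carry the name without being counted as subunits today, Ndufa4 and Ndufa4l2. The subunits comprised 7 core subunits, 9 accessory subunits of the matrix arm, 9 of the proximal membrane arm and 11 of the distal membrane arm. Ndufab1, the acyl carrier protein, was counted with the distal membrane arm only, though it is also held at the matrix arm. The genes lie on 17 chromosomes, with Ndufa1 and Ndufb11 on the X chromosome. All 46 passed the filter on low counts (18743 genes passed in all).

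Complex I, or NADH:ubiquinone oxidoreductase, is the entry point of the mitochondrial respiratory chain for electrons from NADH. Its matrix arm oxidises NADH and passes the electrons along iron-sulfur clusters to ubiquinone, and its membrane arm pumps protons. Core subunits carry out the chemistry, accessory subunits surround and stabilise them, and assembly factors help to build the enzyme and leave it when it is complete. The remaining core subunits, of the membrane arm, are encoded by the mitochondrial genome (the mt-Nd genes), and neurons depend heavily on the ATP that the respiratory chain sustains.

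RNA was sequenced from the hypothalamus of C57BL/6J mice, an inbred strain, at 4 months of age. The dams had eaten either a control diet or an obesogenic diet high in fat and sugar through pregnancy and lactation, and the offspring were weaned onto chow at postnatal day 21. Every offspring, including those of control dams, then received the obesogenic diet for 4 weeks starting at 3 months, so all groups share that exposure. The groups are named here after the maternal diet: 8 libraries of control females, 8 of control males, 7 of obesogenic females and 8 of obesogenic males. The labels name neither individual animals nor litters, 2 titles carry a pair of numbers, and the p-values therefore measure the spread between libraries, which may in part be technical. Because the tissue was sequenced in bulk, fewer cells of a type and less RNA per cell cannot be told apart.

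Library totals ran from 23118626 to 38547288 read pairs. Of the 31 libraries 3 stood apart by their correlation with the rest, and not by marker genes. Levels are given in CPM (read pairs of a gene scaled to a common library total). Marker genes of hypothalamic neurons (10 genes, among them Pmch, Hcrt, Agrp and Pomc) summed to between 1131 and 2244 CPM in the other 28. Obesogenic female 3, with 1631 CPM, lay inside that range, and control male 6, with 3907 CPM, lay above it. In control female 5 these markers summed to 152 CPM. Its olfactory bulb markers reached 1184 CPM and its markers of cortex and hippocampus 711 CPM (at most 11.6 and 53.2 CPM in the 28), so its RNA goes against the labelled tissue. Fewer genes received reads in control male 6 (18734) and in obesogenic female 3 (18513) than in any other library. The reads of Xist and of Y-linked genes went against the labelled sex in control female 7 and control male 7. Results are given with all 31 libraries and again without the 3 that stood apart.

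The subunit genes were abundantly transcribed, and the assembly factor genes less so. Divided by exon length, the 36 subunits had a median level of 66.6 CPM per exon kilobase over the 31 libraries, and the 8 assembly factors a median of 10.8, with a range from 6.48 for Ndufaf2 to 21.9 for Ndufaf5. Of the subunits, 32 lay above the highest assembly factor. The highest subunit was Ndufa2, a matrix arm subunit with a thioredoxin-like fold, at 150 CPM per exon kilobase, followed by Ndufc2 (144) and Ndufa8 (133), both of the proximal membrane arm. Ndufs1, the largest core subunit, stood at 20.7, Ndufb7 at 19.6, Ndufab1, the mitochondrial acyl carrier protein, at 9.06, and Ndufb2 lowest of the subunits at 5.16. Exon length here is that of all annotated exons of a gene joined, so long rare forms in the annotation lower a level per kilobase. The highest of all 46 was Ndufa4, at 199 CPM per exon kilobase, a protein first purified with complex I and now assigned to complex IV, and the lowest was its homologue Ndufa4l2, a gene induced by hypoxia, at 1.54. Every subunit had at least 577 reads in every library and every assembly factor at least 138, whereas Ndufa4l2 had between 27 and 89.

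**Figure D1:**
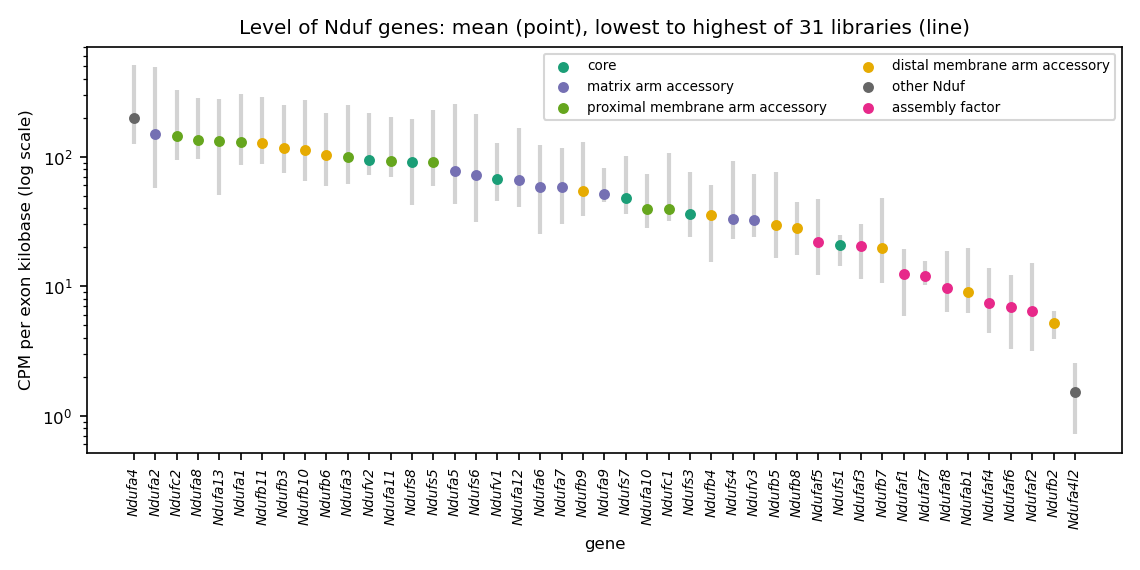
Mean level of all but 1 of the 46 Nduf genes in CPM per exon kilobase (log scale), with a line from the lowest to the highest of 31 libraries, coloured by role. The assembly factors sit between 6.48 and 21.9, below 32 of the 36 subunits.

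A further 5 annotated genes with an Nduf symbol are not protein-coding and were left out of the members. Of these, Ndufb1-ps, annotated as a non-coding RNA, carried a median of 80.4 CPM (50.2 to 212) and the remaining 4, processed pseudogenes, lower medians. Reads of Ndufab1 and Ndufs6 may be shared with their pseudogenes of like sequence (medians 6.87 and 2.64 CPM), so those 2 levels are less certain.

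The start regions of the genes were examined for letters bound by known regulators of respiratory genes. The members varied together across libraries, as described further on, and a part of these letters in that was not tested. RefSeq promoter windows (GRCm38.p6, 250 bases before to 50 after the annotated start) were found for 40 of the 46 members. Both strands were searched for exact matches. GCGCATGCG, from the palindrome bound by NRF1, occurred in 4 of 40 windows (10%) against 421 of 17492 windows of protein-coding genes (2.41%), with overlapping matches on both strands counted once. AAGATGGCG, bound by YY1, occurred in 6 of 40 (15%) against 340 (1.94%). CCGGAAG, read by ETS factors such as GABP, occurred in 6 of 40 (15%) against 11.9% of all windows, GGGCGG, bound by SP1, in 21 (52.5%) against 46.3%, and TATAAA in 4 (10%) against 13.3%, while TCAAGGTCA, bound by estrogen-related receptors, was in 0 of 40 and in 0.332% of all windows. The median share of G and C was 59.3% in the members' windows and 56.3% in all. A match is a description of letters and not of a bound site, and none of the data measured binding.

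The 4 windows with the NRF1 letters belong to Ndufa8 (chr2:36049331-36049355), Ndufa11 (chr17:56717694-56717719), Ndufaf4 (chr4:24897962-24897987) and Ndufaf5 (chr2:140170654-140170679). In Ndufa8, which lies on the minus strand, the match read against the gene. The other 3 held the full palindrome, which matches on both strands. They are shown because Ndufaf4 and Ndufa11 recur in the results, and are printed 5′ to 3′ along the gene with the match in capitals.
Ndufa8: gctggagaCGCATGCGCagatggta
Ndufa11: tgcactgcGCGCATGCGCgcacgcct
Ndufaf4: agatgtctGCGCATGCGCctgtgcgg
Ndufaf5: tcccgttgGCGCATGCGCctaataga

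The YY1 letters were found in Ndufa9 (chr6:126849099-126849123), Ndufaf8 (chr11:120098936-120098960), Ndufc1 (chr3:51408917-51408941), Ndufs4 (chr13:114388045-114388067), Ndufs6 (chr13:73328433-73328457) and Ndufs7 (chr10:80249465-80249489). In all 6 the motif read along the strand of the gene and began between 11 and 36 bases after the start. The letters also hold ATG, the usual start codon. Whether these matches lie at the start of the protein-coding part of each gene was not tested. These 6 are shown because they share both place and orientation, with the motif in capitals.
Ndufa9: tgtgggagAAGATGGCGgccgccgt
Ndufaf8: cagggcccAAGATGGCGgcgccctc
Ndufc1: tgcggaacAAGATGGCGccgtccgt
Ndufs4: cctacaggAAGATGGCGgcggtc
Ndufs6: tcaccggcAAGATGGCGgcggtgct
Ndufs7: ccgaggccAAGATGGCGgcgctggc

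The 250 bases before the start of Ndufaf4 (chr4:24897833-24898082, plus strand), which hold no annotated exon of the gene, are given whole, because Ndufaf4 had the smallest p of all members for maternal diet in females. The NRF1 letters are in capitals.
Ndufaf4 upstream: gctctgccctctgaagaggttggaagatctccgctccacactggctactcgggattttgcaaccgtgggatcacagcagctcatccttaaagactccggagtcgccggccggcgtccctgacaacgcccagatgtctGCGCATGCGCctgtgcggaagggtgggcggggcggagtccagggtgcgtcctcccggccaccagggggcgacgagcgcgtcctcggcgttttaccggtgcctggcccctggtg

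Across libraries the subunit genes moved together, and 2 libraries lay far from the rest. In control male 6, 34 of the 36 subunits had their highest level of all 31 libraries (the exceptions were Ndufs1 and Ndufb2), and the summed level of the 36 was 7896 CPM against 3275 to 4275 CPM in the other 7 control males. Set against the median of those 7, its subunit genes had a median ratio of 2.26, from a log2 ratio of -0.18 for Ndufs1 to 1.90 for Ndufa2. In obesogenic female 3, 30 of the 36 subunits had their lowest level of all 31 libraries, and the sum was 2439 CPM against 3162 to 3687 CPM in the other 6 obesogenic females. Its lowest log2 ratio to them was -1.27 for Ndufa13, and Ndufb2 (0.19) lay on the other side. The assembly factors followed in sum: the 8 summed to 350 CPM in control male 6 (189 to 219 CPM in the other 7) and to 149 CPM in obesogenic female 3 (176 to 204 CPM in the other 6). All 8 lay above the other 7 in control male 6. In obesogenic female 3 their direction was mixed, with 5 below the range of the other 6 and 1 inside it. The 2 above it were Ndufaf6 (log2 ratio 0.22) and Ndufaf7 (0.43).

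In control male 6 the summed markers of hypothalamic neurons (3907 CPM) and of oligodendrocytes (5 genes, 9662 CPM) were also the highest of all 31 libraries. So were the sums of microglia (307 CPM) and of endothelial cells (219.7 CPM). Single genes differed within each sum. Pmch alone gave 2332 CPM, and Oxt, Trh, Sim1 and Mobp were not the highest. C1qa (125.7 CPM) was the highest of all libraries, while P2ry12 (17.6 CPM) was the lowest of the control males. Ly6c1 (99.9 CPM) and Cldn5 (54.6 CPM) were the highest of all libraries and Flt1 (39.5 CPM) the lowest. General neuron markers (7 genes) were not raised in sum. Their sum of 2640.2 CPM was the lowest of the control males and inside the range of the 28 (2619 to 3973 CPM). Of these, Rbfox3 (73.5 CPM) and Syt1 (363 CPM) were the lowest of all 31 libraries, and Gad1 (288 CPM) was the lowest of the control males. Snap25, Slc17a6, Slc32a1 and Gad2 lay inside the range of the other control males. In obesogenic female 3 the hypothalamic neuron and oligodendrocyte markers summed to 1631 and 5029 CPM, within the range of the 28 (1131 to 2244 and 4456 to 7924 CPM). Their part in the results was not tested.

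Control female 5, the library with olfactory bulb markers, moved both ways in these genes: 16 of its 36 subunits fell below the range of the other 7 control females, 5 above it and 15 inside it. Its subunit sum was 3644 CPM. Co-movement was not limited to the libraries that stood apart: 34 of 36 subunits lay above their group's median in control male 4 and obesogenic male 8, and 1 and 2 of 36 in control male 7 and obesogenic male 1. The 36 genes are thus not 36 separate observations of a library. Genes of other lists moved with them. Control male 6 also had the highest sum of its group for complexes II to V, 17018 CPM against 7761 to 9483 CPM in the other 7. The same held for cytosolic ribosomal protein genes, with 48696 CPM against 17748 to 26089 CPM. Obesogenic female 3 had the lowest of its group for both lists, 6200 and 12232 CPM. The median exon length was 1635 bases for the subunits and 3750 for all genes tested, and 31 of 36 subunits were shorter than that median. The mean log2 CPM of the shortest 10% of genes minus that of the longest 10% was -3.83 in control male 6 (-4.82 to -4.24 in the other 7) and -5.49 in obesogenic female 3 (-4.98 to -4.60 in the other 6). By group, this value averaged -4.62 in control and -4.86 in obesogenic females (-4.57 and -4.75 without the libraries that stood apart). In males it averaged -4.51 and -4.69 (-4.61 and -4.69 without those libraries). It was thus lower in both obesogenic groups, as were most subunits. The differences below were also refitted after correction for each library's trend in exon length. The corrected subunit medians are given for maternal diet in females and in males. The part of transcript length itself was not tested.

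**Figure D2:**
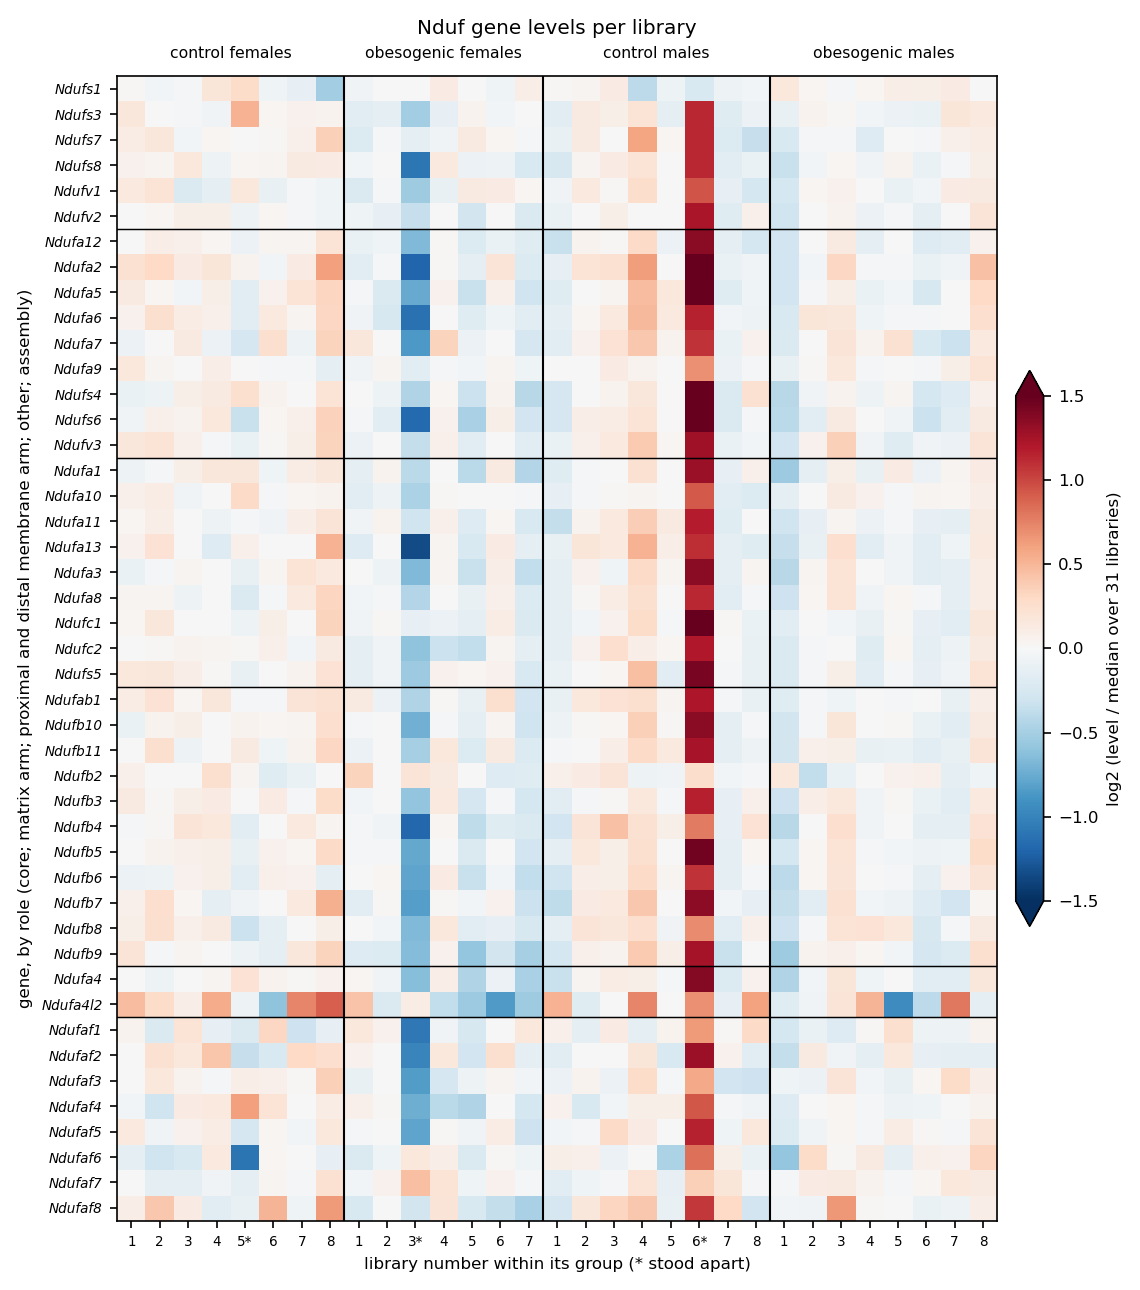
Level of all but 1 of the 46 genes in each library as log2 of its ratio to the median of 31 libraries (rows: genes by role; columns: libraries by group; asterisks: libraries that stood apart). Control male 6 is red in nearly every row, obesogenic female 3 is blue in most, and Ndufs1 lies inside the range of its group in both.

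In daughters, the comparison of obesogenic with control females asks whether the dam's diet left a mark on these genes. Most subunit genes were somewhat lower in obesogenic females, and no single gene passed the test. The summed subunit level was 3742 ± 142 CPM (SD, n = 8) in control females and 3296 ± 425 CPM (SD, n = 7) in obesogenic females. All 7 obesogenic libraries lay below the control mean and 5 below the lowest control library. Without the libraries that stood apart the sums were 3756 ± 147 CPM (SD, n = 7) and 3439 ± 213 CPM (SD, n = 6), with 6 of 6 below the control mean and 4 below the lowest control library. By edgeR's quasi-likelihood test with Benjamini-Hochberg adjustment over 18743 genes, 0 genes were called (0%), and 1522 genes (8.12%) had an unadjusted p under 0.05. None of the 46 members was among the 6 genes that DESeq2 called, and limma voom called 0 genes.

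**Figure D3:**
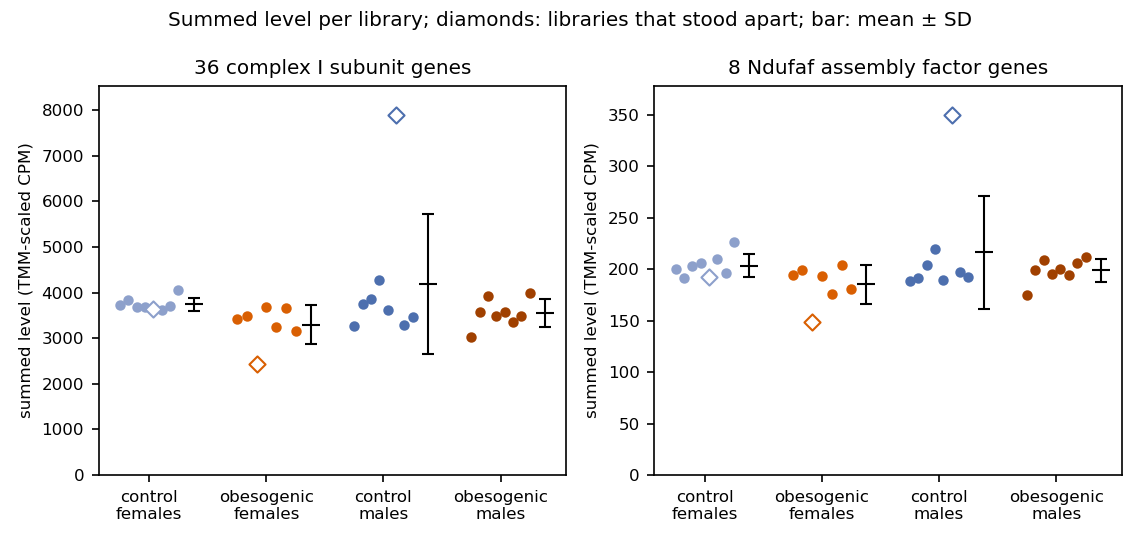
Summed level (CPM, scaled by TMM) of the 36 subunit genes and of the 8 assembly factor genes in each library; diamonds are libraries that stood apart, bars the mean ± SD of all libraries of a group. Of the obesogenic females 5 of 7 fall below the lowest control female for the subunits and 3 of 7 for the assembly factors. In both panels obesogenic males lie within the range of the control males except for 1 library.

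Of the 36 subunits 34 were lower in obesogenic females, where 52.5% of all genes tested were lower. The median log2 fold change of the subunits was -0.19 and that of all genes tested -0.01. The median was -0.13 without the libraries that stood apart (33 of 36 lower; background 50.1%) and -0.12 after correction for the trend in exon length. An unadjusted p under 0.05 in the lower direction was reached by 4 of 36 subunits with all libraries (background 4.75%), and by 11 of 36 without the libraries that stood apart (background 4.79%). The levels of every member overlapped between the 2 groups, and the share of all genes tested that did so was not counted.

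Among the core subunits, which hold the flavin and the iron-sulfur clusters, 6 of 7 were lower in obesogenic females with a median of -0.15. Ndufv1, which binds the flavin and oxidises NADH, had 142, 162 and 191 CPM (lowest, median and highest) in control females and 115, 163 and 182 CPM in obesogenic females. The ranges overlapped over most of their length, and the lowest value was that of obesogenic female 3. The medians were nearly the same, and the log2 difference of -0.07 ± 0.12 was smaller than its error (SE; edgeR adjusted p = 0.882) and turned to 0.03 ± 0.08 without the libraries that stood apart. Ndufs1, which carries several of the clusters, was the core subunit with a higher estimate. It had 116, 164 and 202 CPM in control females and 160, 167 and 182 CPM in obesogenic females, with an estimate of 0.04 ± 0.08 on the log2 scale (edgeR adjusted p = 0.911), and 0.10 ± 0.08 without the libraries that stood apart. The widest values of Ndufs1 were both in control females, library 8 at the bottom and library 5 at the top.

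All 9 accessory subunits of the matrix arm were lower, with a median of -0.23. Ndufa6, a LYR-motif protein that anchors the acyl carrier protein to this arm, had 90.05, 107 and 124 CPM in control females and 46.0, 88.8 and 100 CPM in obesogenic females. All 7 obesogenic libraries lay below the control mean, and obesogenic female 3 lay far below the other 6, which began at 84.5 CPM. Its log2 fold change was -0.33 ± 0.15 (edgeR unadjusted p = 0.0326, adjusted p = 0.595), and -0.25 ± 0.08 without the libraries that stood apart (adjusted p = 0.358). Ndufs4, whose loss in mice causes a fatal encephalopathy resembling Leigh syndrome, had 80.8, 91.0 and 102 CPM in control females and 63.2, 81.7 and 89.6 CPM in obesogenic females. The ranges overlapped between 80.8 and 89.6 CPM, and the log2 fold change was -0.23 ± 0.17 (edgeR adjusted p = 0.718), and -0.15 ± 0.09 without those libraries.

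All 9 accessory subunits of the proximal membrane arm were lower as well, with a median of -0.18. Ndufc2, a small membrane subunit, had 105, 109.7 and 118 CPM in control females (coefficient of variation 3.63%, and 3.88% without control female 5) and 71.0, 97.2 and 111 CPM in obesogenic females. Of the 7 obesogenic libraries 6 lay below the control mean. The log2 fold change was -0.25 ± 0.13 (edgeR adjusted p = 0.628), and -0.19 ± 0.07 without the libraries that stood apart (unadjusted p = 0.00913, adjusted p = 0.374). Ndufa1, an X-linked membrane subunit required for assembly, had 49.7, 56.2 and 59.2 CPM in control females and 38.6, 47.8 and 57.6 CPM in obesogenic females. The log2 difference of -0.23 ± 0.15 (edgeR adjusted p = 0.689) was within the spread of the libraries.

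Of the 11 accessory subunits of the distal membrane arm 10 were lower, with a median of -0.20, and Ndufb2 was the exception. Ndufb9, another LYR-motif protein that holds an acyl carrier protein at the far end of the membrane arm, showed the largest difference of the 36 subunits in obesogenic females. It had 50.9, 56.9 and 70.9 CPM in control females and 35.8, 46.5 and 58.6 CPM in obesogenic females, with 6 of 7 obesogenic libraries below the lowest control. Its log2 fold change was -0.38 ± 0.16 (edgeR unadjusted p = 0.024, adjusted p = 0.577), and -0.34 ± 0.11 without the libraries that stood apart (adjusted p = 0.358). Ndufb4 had 59.4, 68.3 and 76.8 CPM in control females and 29.5, 59.3 and 68.5 CPM in obesogenic females (log2 fold change -0.29 ± 0.14, edgeR adjusted p = 0.601). Its lowest value again came from obesogenic female 3, and the next was 51.2 CPM. The X-linked Ndufb11, with 106, 114 and 139 CPM against 79.2, 105 and 125 CPM, had -0.17 ± 0.14 (edgeR adjusted p = 0.745), and -0.09 ± 0.08 without the libraries that stood apart; its lowest value was that of obesogenic female 3. Ndufb2 had 25.2, 28.6 and 33.6 CPM against 25.1, 28.6 and 35.96 CPM and a log2 fold change of 0.04 ± 0.09, and 0.03 without those libraries.

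The assembly factors were of mixed direction. Of the 8, 6 were lower in obesogenic females, with a median log2 fold change of -0.18 (-0.12 and 5 of 8 without the libraries that stood apart). Ndufaf4, which acts with Ndufaf3 on the early module that will hold the ubiquinone site, had the smallest p of the 46 members. It had 22.96, 30.7 and 43.4 CPM in control females and 17.1, 23.6 and 29.9 CPM in obesogenic females. The highest control was female 5, which carried the olfactory bulb markers, and the lowest value was again obesogenic female 3. The log2 fold change was -0.36 ± 0.14 (95% interval -0.64 to -0.08; edgeR unadjusted p = 0.0142, adjusted p = 0.549), and -0.19 ± 0.09 without the libraries that stood apart (adjusted p = 0.449).

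Ndufaf3 itself had 36.2, 38.5 and 47.1 CPM in control females and 20.6, 34.9 and 37.8 CPM in obesogenic females, all 7 below the control mean (log2 fold change -0.25 ± 0.11, edgeR adjusted p = 0.598, and -0.16 ± 0.08 without the libraries that stood apart). Ndufaf8, the partner of the hydroxylase Ndufaf5, had 6.64, 8.03 and 11.6 CPM in control females and 5.31, 6.36 and 8.52 CPM in obesogenic females. The difference did not shrink without the libraries that stood apart: -0.39 ± 0.17 with all (edgeR adjusted p = 0.589) and -0.40 ± 0.15 without them (adjusted p = 0.385). Ndufaf1, which works in the complex that assembles the membrane arm, had 15.2, 17.3 and 23.3 CPM against 8.90, 18.8 and 20.97 CPM and a log2 fold change of -0.06 ± 0.14 (edgeR adjusted p = 0.92). Its lowest value was that of obesogenic female 3, and the estimate turned to 0.04 ± 0.10 without the libraries that stood apart. Ndufaf5, the hydroxylase that modifies Ndufs7, had -0.15 ± 0.14, then -0.09. Ndufaf7, a methyltransferase, and Ndufaf6 were the 2 with higher estimates, 0.13 ± 0.08 (then 0.05) and 0.14 ± 0.16. Ndufaf6 had 4.03 CPM in control female 5, where the other 7 control females had 6.99 to 9.51 CPM, and its estimate was 0.02 without the libraries that stood apart.

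The 2 genes outside complex I were lower too. Ndufa4 had 256.2, 276 and 314 CPM in control females and 173, 254.6 and 289 CPM in obesogenic females, with a log2 fold change of -0.24 ± 0.17 (edgeR adjusted p = 0.689), and -0.15 ± 0.09 without the libraries that stood apart. Ndufa4l2 had 0.99, 1.95 and 2.81 CPM in control females and 0.84, 1.17 and 2.04 CPM in obesogenic females. The log2 difference, -0.58 ± 0.26 (edgeR unadjusted p = 0.0322, adjusted p = 0.595), was the largest of the 46 genes and rests on few reads. In the brain this gene is known from mural cells of vessels, and none of their 6 markers was at 0 in all libraries. The 6 summed to 124 to 238 CPM (median 158) in control females and 127 to 176 CPM (median 144) in obesogenic females. The top of the control range was control female 5, with 153.9 CPM of Vtn. By gene, most of the 6 had a higher median in obesogenic than in control females. The part of mural cells in the result was not tested.

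**Figure D4:**
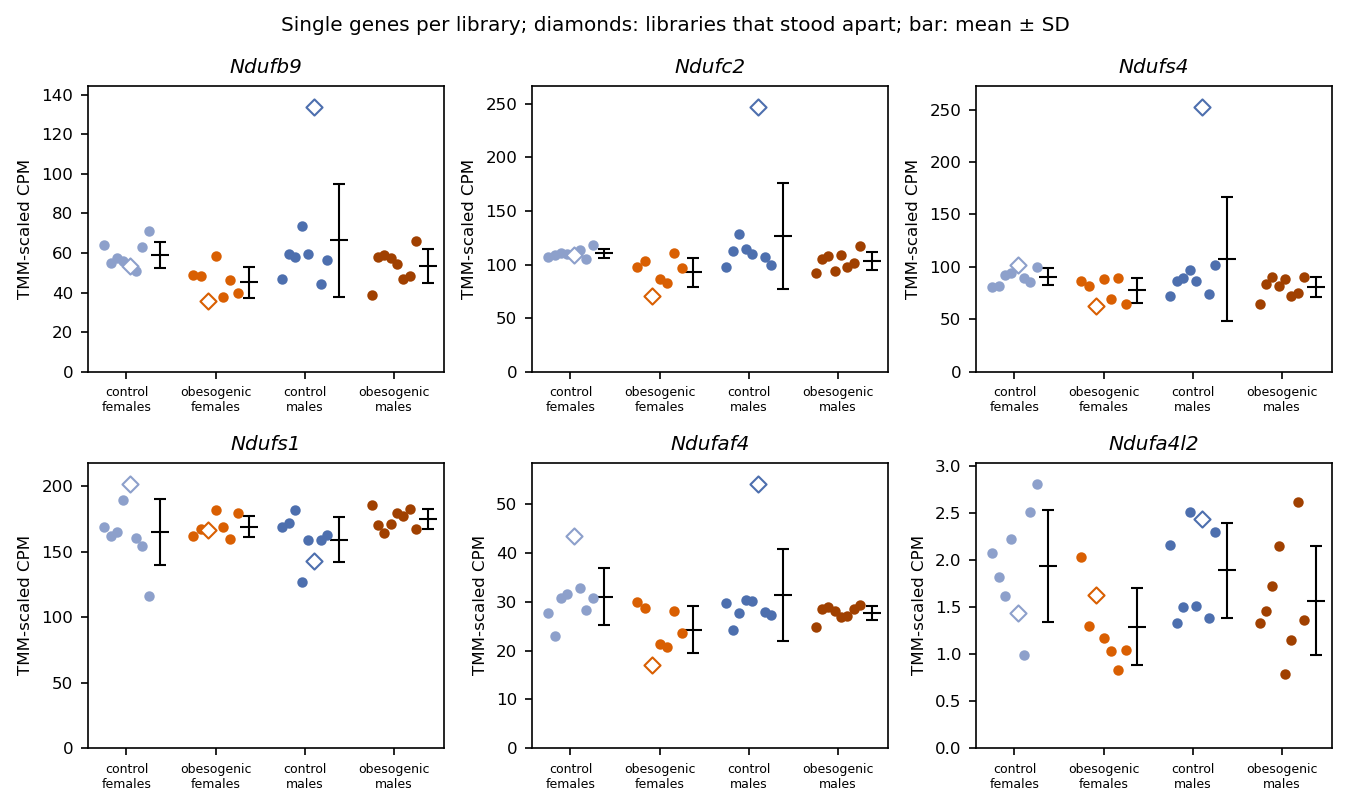
Level (CPM, scaled by TMM) of 6 genes in each library; diamonds are libraries that stood apart, bars the mean ± SD of all libraries of a group. Control male 6 is the highest point for Ndufb9, Ndufc2, Ndufs4 and Ndufaf4, and in Ndufs1 it lies at 143 CPM, among the lower control males.

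In sons, the same comparison gave lower estimates for nearly every subunit, and control male 6 set their size. The summed subunit level was 4180 ± 1537 CPM (SD, n = 8) in control males and 3549 ± 306 CPM (SD, n = 8) in obesogenic males. All 8 obesogenic libraries lay below that control mean, but only 1 lay below the lowest control library. Without control male 6 the control mean was 3649 ± 355 CPM (SD, n = 7), and the difference of -101 CPM was smaller than the SD of either group. By edgeR 0 of 18743 genes were called (0%), and 647 (3.45%) had an unadjusted p under 0.05. The 1 gene called by DESeq2 was no member, and limma voom called 0.

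Of the 36 subunits 35 were lower in obesogenic males (background 49.9%), with a median log2 fold change of -0.28. Without the libraries that stood apart 31 of 36 were lower (background 50.6%) and the median was -0.07, and limma voom, which weights libraries by their quality, gave 24 of 36 and -0.02. Correction for exon length left 34 of 36 and -0.21. An unadjusted p under 0.05 in the lower direction was reached by 13 of 36 subunits with all libraries (background 2.54%) and by 0 of 36 without those that stood apart (background 1.61%). By role, the medians with all libraries were -0.18 for the core, -0.28 for the matrix arm, -0.31 for the proximal and -0.30 for the distal membrane arm.

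Ndufs4 had the smallest p in sons. It had 72.4, 88.2 and 252.2 CPM in control males and 64.7, 82.9 and 90.8 CPM in obesogenic males. The next highest control after male 6 had 101 CPM, and below it the 2 groups overlapped over most of their range. The log2 fold change was -0.41 ± 0.17 (edgeR unadjusted p = 0.0206, adjusted p = 0.94), and -0.11 ± 0.08 without the libraries that stood apart. Ndufa11, a membrane subunit related to the Tim17 family of translocases, had 76.6, 104 and 222 CPM in control males and 79.4, 91.2 and 108 CPM in obesogenic males (log2 fold change -0.31 ± 0.13, and -0.12 ± 0.08 without those libraries). Ndufab1 had 54.5, 63.1 and 137 CPM against 51.8, 58.2 and 63.0 CPM (-0.30 ± 0.13, then -0.11 ± 0.07). Ndufc2 had 98.0, 111 and 247 CPM against 92.3, 103 and 118 CPM (-0.30 ± 0.13, then -0.10 ± 0.06). In each of these the highest control male was library 6, and the groups overlapped.

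The other members described for daughters followed the same course. Ndufb9 had 44.4, 58.7 and 134 CPM in control males and 38.6, 55.9 and 66.04 CPM in obesogenic males, with a log2 fold change of -0.31 ± 0.16 and -0.09 ± 0.10 without the libraries that stood apart. The X-linked Ndufa1 and Ndufb11 had -0.29 ± 0.15 and -0.30 ± 0.14, then -0.06 and -0.10. Ndufa5, a matrix arm subunit, went from -0.45 ± 0.20 to -0.08 ± 0.09, and Ndufa2 from -0.47 ± 0.22 to -0.10. Ndufv1 had 138, 168 and 319 CPM against 138, 167 and 182 CPM (-0.17 ± 0.12, then -0.02). Ndufa4 had 215, 280 and 699 CPM against 197, 261.3 and 307 CPM (-0.30 ± 0.16, then -0.04).

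Control male 6 lay above the other 7 control males in 35 of 36 subunits, and Ndufs1 was the exception. It had 127, 161 and 182 CPM in control males and 165, 174 and 186 CPM in obesogenic males, with all 8 obesogenic libraries above the control mean. Its log2 fold change was 0.14 ± 0.08 (edgeR unadjusted p = 0.0955, adjusted p = 0.94), and 0.11 ± 0.07 without the libraries that stood apart. For Ndufb2 control male 6 was the highest control by a small margin (34.2 CPM, with 27.1 to 32.7 in the other 7), obesogenic males had 22.1, 27.9 and 31.97 CPM, and the estimate was -0.10 ± 0.08, then -0.08. For the 8 assembly factors the median was -0.18 with 6 lower, and -0.03 with 5 lower without the libraries that stood apart. Ndufaf4 had 24.3, 28.8 and 54.1 CPM against 24.7, 28.2 and 29.3 CPM (-0.18 ± 0.13, then -0.03), and Ndufaf3 29.7, 35.3 and 54.4 CPM against 34.1, 36.6 and 44.4 CPM (0.00 ± 0.11).

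**Figure D5:**
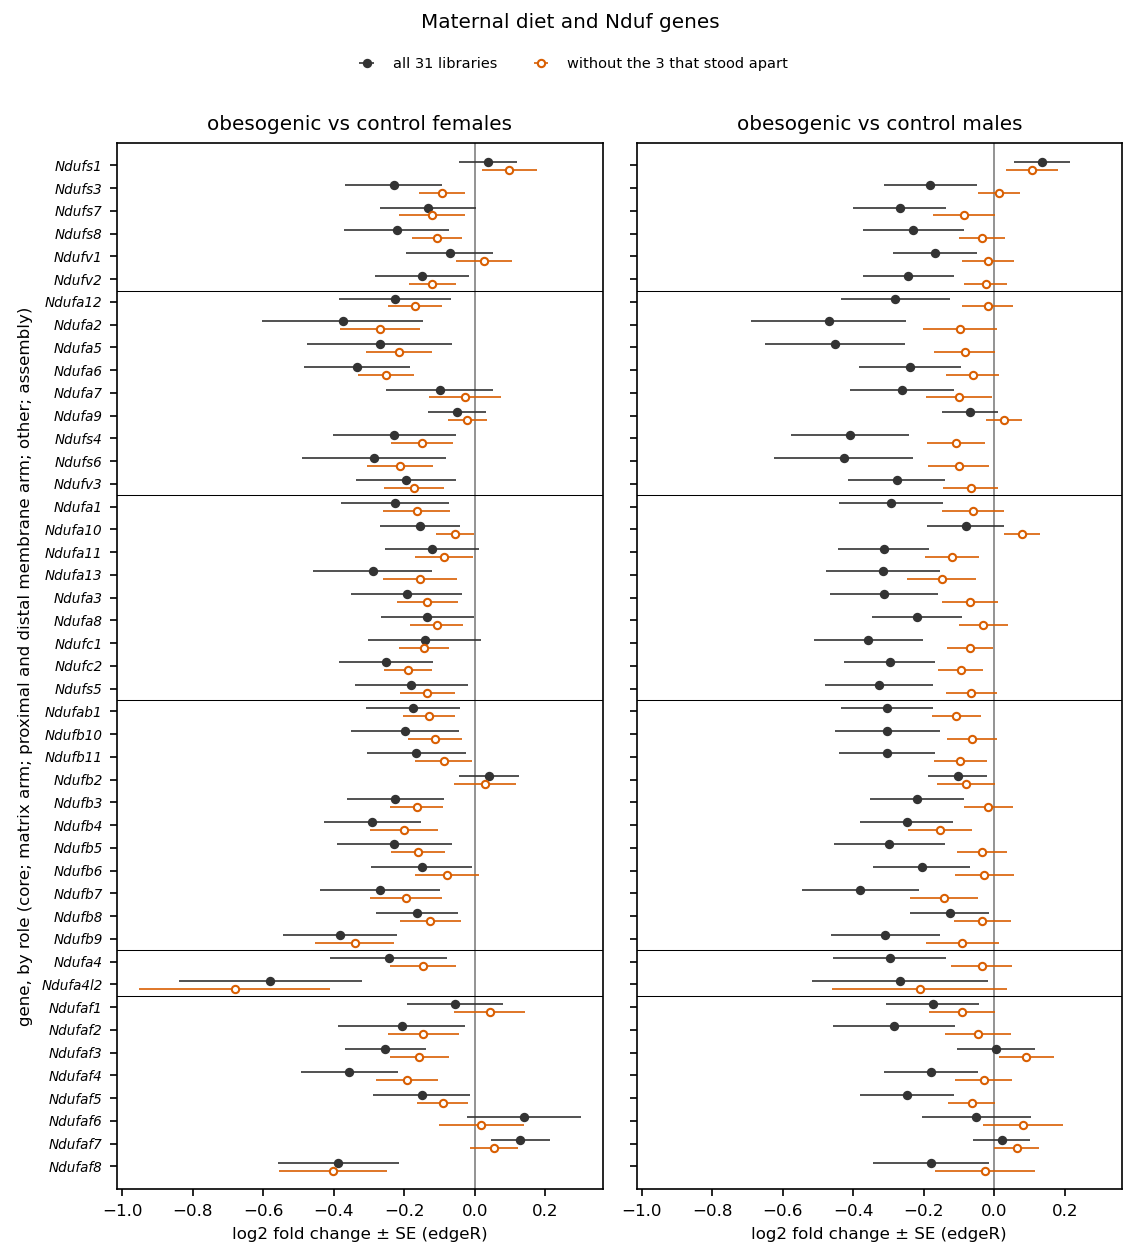
Log2 fold change (± SE, edgeR) of all but 1 of the 46 genes for maternal diet in females (left) and males (right), with all 31 libraries (filled) and without the 3 that stood apart (open). In females most open points stay left of 0 (33 of all 36 subunits), and in males they gather near it, with a subunit median of -0.07.

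Daughters and sons were compared with separate control groups, so the 2 directions can be set side by side. They may not be independent, since the labels name no litters. The counts also keep control female 7 and control male 7, whose reads went against their labelled sex. Of the 36 subunits 34 were lower in both sexes (94.4%), against 30.9% of all genes tested, and without the libraries that stood apart 29 of 36 (80.6%) against 28%. The core subunits were the role with the fewest, 3 of 7 without those libraries, beside 8 of 9 in the matrix arm, 8 of 9 in the proximal and 10 of 11 in the distal membrane arm. Of the 8 assembly factors 5 were lower in both sexes, and 4 without those libraries. Since the genes vary together between libraries, these counts do not measure how firm a difference is.

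Averaged over the sexes, 35 of 36 subunits were lower (background 52.5%) with a median of -0.24, and 26 of 36 had an unadjusted p under 0.05 in the lower direction (background 6.37%). Without the libraries that stood apart, 32 of 36 were lower (background 50.8%), the median was -0.10, and 13 of 36 had an unadjusted p under 0.05 (background 4.17%). No gene was called by edgeR (0%, with 1918 or 10.2% at an unadjusted p under 0.05), 5 by DESeq2 and 0 by limma voom. The smallest p values were those of Ndufb9 (-0.35 ± 0.11, 95% interval -0.57 to -0.12, edgeR unadjusted p = 0.00411, adjusted p = 0.464), Ndufc2 (-0.27 ± 0.09), Ndufb4 (-0.27 ± 0.10) and Ndufaf4 (-0.27 ± 0.10). Without the libraries that stood apart these were -0.22 ± 0.08, -0.14 ± 0.05, -0.18 ± 0.07 and -0.11 ± 0.06, with an adjusted p of 0.579 for the first 3 and 0.632 for Ndufaf4.

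Whether the diet difference itself differed between the sexes was tested as an interaction (females minus males). It called 0 genes by edgeR (0%; 679 or 3.62% at an unadjusted p under 0.05, DESeq2 6, limma voom 0). Of the 46 members 0 had an unadjusted p under 0.05 in the lower direction (background 2.33%). The estimate was below 0 for 9 of 36 subunits (background 49%) with a median of 0.08, and for 31 of 36 with a median of -0.07 without the libraries that stood apart (background 48.9%), so the direction depended on them. The smallest p belonged to Ndufaf3, at -0.26 ± 0.16 (unadjusted p = 0.115), and -0.25 ± 0.11 without those libraries (unadjusted p = 0.035, edgeR adjusted p = 0.98, background 2.16% for lower genes). Ndufb2 had 0.14 ± 0.12 and Ndufa11 0.19 ± 0.19, and 0.11 and 0.03 without those libraries.

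Sexes were also compared within each maternal diet, and in each the number of lower Nduf genes other than assembly factors moved most without 1 library, control male 6 among controls and obesogenic female 3 among obesogenic offspring. Among controls, 34 of 36 subunits were lower in females than in males (background 51.1%, median -0.17), and 6 of 36 were lower without the libraries that stood apart (background 50.4%, median 0.04). Among obesogenic offspring 35 of 36 were lower in females (background 51.3%) with a median of -0.11. Without those libraries 25 of 36 were lower (background 48.7%), with a median of -0.04. In both comparisons 0 members had an unadjusted p under 0.05 in the lower direction (background 1.07% and 1.59%), and likewise 0 without those libraries (1.17% and 2.59%). In the higher direction Ndufaf2 had an unadjusted p of 0.0462 among controls without those libraries (0.20 ± 0.10, edgeR adjusted p = 1). Among controls edgeR called 0 genes (0%), DESeq2 1 and limma voom 0, and 823 (4.39%) had an unadjusted p under 0.05. Each control group holds 1 library whose reads went against its labelled sex, and without those 2 libraries (control female 7 and control male 7) edgeR called 10 genes, no member among them. Among obesogenic offspring edgeR called 0 (0%), or 1 without the libraries that stood apart (0.00531%, no member), DESeq2 12 and limma voom 3, while 681 (3.63%) had an unadjusted p under 0.05. The smallest p among controls were those of Ndufaf6 (-0.27 ± 0.16), Ndufaf5 (-0.23 ± 0.13), Ndufa5 (-0.34 ± 0.20) and Ndufb6 (-0.23 ± 0.14), which became -0.04, -0.01, 0.06 and -0.03 without the libraries that stood apart. Ndufb6, a distal membrane subunit, had 59.8, 67.1 and 71.3 CPM in control females and 54.9, 70.6 and 143 CPM in control males. Among obesogenic offspring they were Ndufa6 (-0.26 ± 0.15), Ndufaf3 (-0.20 ± 0.11), Ndufb4 (-0.22 ± 0.14) and Ndufaf8 (-0.27 ± 0.17), which became -0.15, -0.10, -0.09 and -0.24 without those libraries.

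Of the core subunits encoded by the mitochondrial genome, the 7 mt-Nd genes, 6 were lower in daughters (median -0.16), as were 6 of 7 nuclear core subunits (median -0.15). In sons 1 of 7 mt-Nd genes was lower (median 0.14), beside 6 of 7 nuclear core subunits (median -0.18). The difference between the 2 lists was not tested. Leaving out the libraries that stood apart, 7 of 7 mt-Nd genes were lower in daughters and 1 of 7 in sons. Their summed level was 22951 ± 4113 CPM (SD, n = 8) in control females and 21024 ± 4602 CPM (SD, n = 7) in obesogenic females, and 20534 ± 3605 CPM (SD, n = 8) and 23029 ± 4193 CPM (SD, n = 8) in control and obesogenic males. Both differences were smaller than the SD of the groups. In control male 6, where the nuclear subunits were highest, the mt-Nd sum was the lowest of its group at 16210 CPM. The interaction estimate was below 0 for 7 of 7 (background 49%), from -0.91 (mt-Nd4l) to -0.20 (mt-Nd6). An unadjusted p under 0.05 was reached by 0 of 7 (background 3.62%), and by 1 without the libraries that stood apart.

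Assembly factors without an Nduf symbol, 11 genes such as Acad9, Ecsit and Timmdc1, had a median of -0.07 in daughters (8 lower) and -0.04 in sons (9 lower). In either, 0 of 11 had an unadjusted p under 0.05 (background 8.12% in daughters and 3.45% in sons), and with so few genes that count shows little. Of 10 regulators of respiratory genes, 6 were lower in daughters and 4 in sons. Tfb2m, a mitochondrial transcription factor, had -0.24 ± 0.10 in daughters (edgeR unadjusted p = 0.0255, adjusted p = 0.579) and -0.04 ± 0.10 in sons, and Esrra, an estrogen-related receptor, -0.35 ± 0.18 and -0.06 ± 0.17. Among the genes whose products bind the letters found in the windows above, the estimates in daughters and sons were 0.02 ± 0.11 and -0.02 ± 0.10 for Nrf1, -0.06 ± 0.07 and 0.11 ± 0.07 for Yy1, 0.01 ± 0.18 and 0.15 ± 0.18 for Gabpa, and 0.06 ± 0.10 and 0.04 ± 0.10 for Gabpb1, the last 2 being subunits of GABP. Complexes II to V moved like complex I, with 35 of 37 lower in each sex (medians -0.23 and -0.24), and so did the cytosolic ribosomal protein genes, with 75 and 76 of 77 lower (medians -0.25 and -0.31). Without the libraries that stood apart, 21 of 37 genes of complexes II to V and 73 of 77 ribosomal protein genes were lower in both sexes, beside 29 of 36 complex I subunits. Differences between the lists were not tested.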

How the data were processed

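Counts of read pairs per gene were deposited by the authors as whole numbers, not normalized, 1 column per library; per the file headers, featureCounts 1.6.2 assigned pairs to exons of Ensembl GRCm38 release 94 on the reverse strand, requiring a mapping quality of at least 10 and that both mates aligned. TopHat2 2.0.13 and mm10 are named in the submitters' processing notes, as are FastQC and Subread. No sample column was left unused. Symbols and gene types came from GENCODE annotation of the same build, which matched 54409 of 54532 gene IDs.

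Differences were tested with edgeR 4.0.16 in R 4.3.3 (filterByExpr, 18743 genes, TMM, 1 mean per group over 31 libraries, quasi-likelihood tests, Benjamini-Hochberg adjustment over all genes tested, threshold 0.05). Levels are CPM with TMM-scaled library sizes, with 1 read worth 0.0259 to 0.0433 CPM of the unscaled total. Between the most alike libraries the chi-square per degree of freedom was 8.31, above sampling noise, so all 31 were kept as separate. A library was said to stand apart where its median correlation with the rest was low by more than 3 median absolute deviations, scaled as R's mad does to match a normal SD. The fit was tested on simulated data.

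Alternatives were DESeq2 1.42.0, limma 3.58.1 voom with quality weights, RLE size factors, no filter, 1 CPM in 7 libraries, only the groups compared, several sets of left-out libraries, and a spline in exon length with 4 degrees of freedom. Leaving out each library in turn was added after seeing the data. Named in full were the 4 members of smallest p in each of the 6 contrasts and 10 chosen by role; members of other lists were named for their role or their values. The members and lists were chosen with earlier results of these data known. Intervals on levels cover the spread between libraries only. Values of 1 member are not reported here, though it stays in the counts, sums and medians.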

Additional observations from a re-analysis of the deposited data

Results flagged for a closer look

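In 104 checks of 26 measures within the 4 groups, 28 had a highest or lowest library whose gap to the next was large for the range of its group. Chance gives about 1 in 20 such groups for measures not picked by their values. Many of the single genes were named for a small p in these same libraries, so that rate need not hold for them. The measures are also not independent, since the genes vary together. The 28 came from 6 libraries.

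Control male 6 gave 18 of them, always as the highest of its group. Its sums were 7896 CPM for the subunits (3275 to 4275 CPM in the other 7 control males) and 349.8 CPM for the assembly factors. Among the subunits it had 319.3 CPM for Ndufv1, 252.2 for Ndufs4, 262.3 for Ndufa5 and 223.6 for Ndufa6, all in the matrix arm. In the membrane arm it had 128.7 CPM for Ndufa1, 221.9 for Ndufa11, 246.9 for Ndufc2, 136.7 for Ndufab1, 143.05 for Ndufb6, 133.7 for Ndufb9 and 263.1 for Ndufb11. Ndufa4 reached 699.4 CPM. Of the assembly factors, Ndufaf4 had 54.1 CPM, Ndufaf5 84.3, Ndufaf6 15.2 and Ndufaf8 15.5. Ndufs1 and Ndufb2 were not among them.

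Obesogenic female 3 gave 4, always as the lowest: the subunit sum of 2439 CPM, Ndufa6 at 46.0 CPM, Ndufaf1 at 8.90 CPM and Ndufaf3 at 20.6 CPM. Control female 5, which carried the olfactory bulb markers, was the highest of its group for Ndufa4 (313.5 CPM) and the lowest for Ndufaf6 (4.03 CPM). Control female 8 was the highest for Ndufaf3 (47.1 CPM). Obesogenic male 1, whose title carries a pair of numbers, was the lowest for the assembly factor sum (175.3 CPM) and for Ndufa1 (35.96 CPM). Obesogenic male 3 was the highest for Ndufaf8 (11.7 CPM).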

How the results depend on the processing

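Under all alternatives no member passed the threshold in any of the 6 contrasts, and of 1472 values of the 23 members named in full 116 changed sign. DESeq2 called 6 genes for diet in females, 1 in males, 5 averaged, 6 for the interaction, 1 for sex in controls and 12 for sex in obesogenic offspring. For sex in controls, 10 genes were called without the libraries against their sex label and 11 without both sets in doubt. For sex in obesogenic offspring the calls were 3 with limma voom, 12 with only the 2 groups, 9, 1 and 14 without the libraries against their label, those that stood apart and both, and 3 with the exon length correction. Over all 38 Nduf genes other than assembly factors, limma voom gave a median of -0.016 for diet in males. Of these 38, the interaction was below 0 for 10, for 36 with limma voom and for 33 without the libraries that stood apart or both sets; of the 8 assembly factors it was below 0 for 7 under each of those 3 settings (median -0.13 with limma voom). Sex in controls was below 0 for 35 of 38, then for 3 with limma voom, 6 without the libraries that stood apart and 12 without both sets, and for 3, 4 and 3 of 8 assembly factors. The cause was not tested.

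Leaving out 1 library at a time, the median of the 38 ranged from -0.23 to -0.13 for diet in females (the last without obesogenic female 3), from -0.33 to -0.063 in males (the last without control male 6) and from -0.27 to -0.13 averaged. The interaction was below 0 for 5 (without obesogenic female 3) to 36 (without control male 6) of 38 and for 3 to 5 of 8 assembly factors, whose median ran from -0.12 to 0.13. Sex in controls was below 0 for 6 (without control male 6) to 36 of 38 and for 4 to 7 of 8. Genes called ranged from 0 to 6 and from 0 to 9 for sex in controls and in obesogenic offspring, with the highest counts without control female 7. No paired analysis was possible because the replicate numbers are only the order of the samples and pair no libraries across groups. For diet in females the 95% intervals of 38 of the 46 members included 0, and Ndufa4l2, with 27 to 89 reads a library, was the member most limited by depth.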

Other observations

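Without the libraries that stood apart, the median coefficient of variation of the 36 subunits was 7.37% in control females, 9.62% in obesogenic females, 11.6% in control males and 10.9% in obesogenic males. With all libraries these were 8.55%, 15.6%, 39.0% and 10.9%. A difference in spread between groups was not tested, and the 36 genes vary together.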
